A study of Homo sapiens with 4 samples.

Results

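The members were the called nucleosomes of 7 genomic blocks in which reads pile up in the hg19 (GRCh37) assembly, in BE(2)C, a human neuroblastoma cell line that carries extra copies of MYCN. The blocks lay at chr16:46380001-46440000 (16q block), chr16:33940001-33990000 (16p block), chr4:49260001-49340000 (4p block), chr8:86730001-86840000 (8q block), chr21:11040001-11190000 (21p block), chr2:91770001-91820000 (2p block) and chr6:58770001-58780000 (6p block). They were chosen by their read level over all 4 libraries, so that level is described here without a test. A nucleosome was a member when its dyad, the centre of the footprint, lay inside a block. Where 4 values stand side by side, they are those of control replicates 1 and 2 and then of MYCN knockdown replicates 1 and 2. There were 2104, 2098, 2098 and 2107 members of 10527010, 12120711, 10677252 and 12178724 listed nucleosomes. They held 0.279%, 0.216%, 0.280% and 0.222% of all listed reads. All cells were of 1 line labelled wild type, were given 80 nM siRNA (control or against MYCN) for 6 h with a lipid reagent, and their crosslinked chromatin was cut with micrococcal nuclease (MNase), with 2 libraries per group. Concentration and time are those of the labels, and the study's methods give a lower concentration and a later harvest. The lists held 147726171 to 242544884 reads, and replicate 2 was the deeper library in both groups. MNase-seq does not measure transcripts, so the knockdown itself was not checked by these data. The replicates are named biological by the study, but no source used here ties them to separate cultures, so the spread between them may be partly technical.

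Centromeres and the chromatin beside them are built of satellite DNA, short units repeated in tandem over long arrays. Alpha satellite makes up the centromere itself, while human satellites 2 and 3 are diverged repeats of the motif CATTC. An assembly that holds fewer copies of a repeat than the genome of a cell is called collapsed, and read pairs from all genomic copies are then mapped to the few copies in the assembly. Read counts in such places follow the copy number of the DNA as well as nucleosome occupancy, and in these data fewer copies and lower occupancy per copy cannot be told apart. No annotation of repeat families was at hand, so the sequence itself was read for copies and periods.

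The reference sequences under the strongest shared nucleosomes show how unlike the blocks are. Each is the footprint of the nucleosome that had the highest mean read count of its block among those found within 10 bp in all 4 libraries. They are given 5′ to 3′ on the plus strand of GRCh37, with CATTC or its reverse complement GAATG in capitals. The first, from the 16q block at chr16:46406247-46406393, is shown for its CATTC repeats. The second, from the 16p block at chr16:33963183-33963329, is shown because most of its 31-bp windows occurred once in GRCh37. Only exact matches were counted, so diverged copies and copies missing from the assembly would not show. The third, from the 4p block at chr4:49318875-49319021, is shown as the most outlying nucleosome of its block. The last, from the 6p block at chr6:58779385-58779531, lies in the array next to the centromere gap. None of them overlapped an annotated gene.
16q: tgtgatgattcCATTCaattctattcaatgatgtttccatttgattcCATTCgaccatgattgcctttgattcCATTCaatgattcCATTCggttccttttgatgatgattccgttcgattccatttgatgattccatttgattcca
16p: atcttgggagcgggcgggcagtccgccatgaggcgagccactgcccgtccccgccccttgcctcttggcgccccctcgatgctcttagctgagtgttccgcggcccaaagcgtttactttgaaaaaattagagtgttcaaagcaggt
4p: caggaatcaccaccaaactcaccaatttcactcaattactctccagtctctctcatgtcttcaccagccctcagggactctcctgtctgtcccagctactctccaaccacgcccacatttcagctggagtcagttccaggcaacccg
6p: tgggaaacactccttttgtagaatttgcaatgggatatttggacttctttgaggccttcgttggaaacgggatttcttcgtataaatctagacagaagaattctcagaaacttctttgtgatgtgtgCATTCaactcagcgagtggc

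Of the 117 windows of 31 bp in each of these sequences, 0 occurred once in GRCh37 in the 16q, 4p and 6p sequences, and 105 did so in the 16p sequence. The median window had 4 copies in the 16q, 12 in the 4p and 3 in the 6p sequence. The 16q sequence held 4 matches to CATTC on either strand, the 6p sequence held 1 and the 16p and 4p sequences held 0.

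The 7 blocks were made up of 51 bins of 10 kb, out of 283718 bins with reads on the autosomes and chromosome X. Relative to the median bin of each library, the 16q block had a median level of 53.7 times over its 6 bins (27.8 to 75.2, mean of the 4 libraries), the 6p block 20.9 times in its only bin, the 4p block 12.3 times, the 8q block 9.71 times, the 16p block 8.61 times, the 21p block 8.28 times and the 2p block 6.20 times. The lowest bin inside a block, at the edge of the 21p block, was at 5.52 times, and the highest bin next to a block, beside the 2p block, was at 5.00 times. Of all 278 bins at 5 or more times the median, 51 were in the blocks, and of the 120 at 10 or more times 21 were. The rest were not members, among them 21 bins around MYCN at a mean of 103.6 times.

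**Figure D1:**
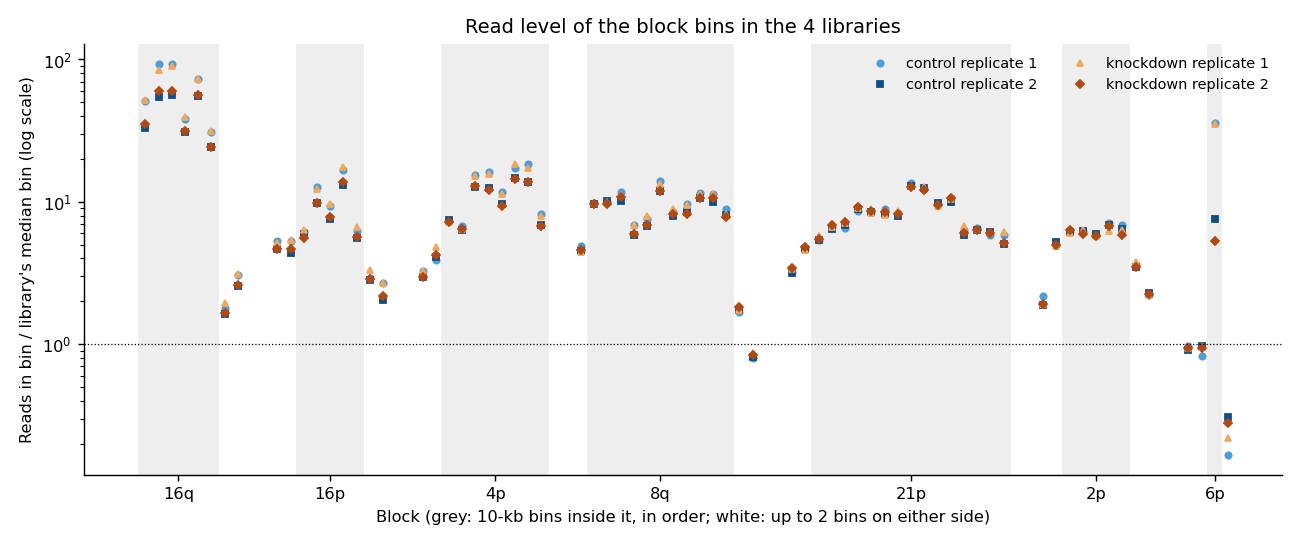
Reads per 10-kb bin divided by the median bin of the library (log scale), for the bins of each block (grey) and up to 2 bins on either side (white), with 1 point per library. The 16q bins lie at 27.8 to 75.2 times on average, and in the 16q, 16p and 6p blocks both replicate 1 libraries lie above both replicate 2 libraries in every bin.

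Inside a block, the read count of a nucleosome was set against that of nucleosomes within 500 kb on either side. In the 16q block the median nucleosome held 936.5, 1202, 956 and 1259.5 reads, against 15 to 25 reads in the flanks. That is 55.7 ± 6.86 times the flanks (SD over 4 libraries). The 8q block stood at 9.46 ± 0.325 times, the 4p block at 4.94 ± 0.283, the 2p block at 4.32 ± 0.315, the 21p block at 4.23 ± 0.141 and the 16p block at 3.73 ± 0.203. The 6p block stood at 1.30 ± 0.168 times by the median nucleosome, although its bin was the second highest by level, and 78.4% to 89.5% of its reads sat in 2 to 9 nucleosomes. By the mean read count in place of the median it stood at 25.3 times, the 21p block at 2.85 and the 2p block at 1.65. The order of the 2p and 21p blocks was within their spread. With flanks of 250 kb the 4p block stood at 3.23 times, below the 21p (4.84), 2p (3.84) and 16p (3.67) blocks. Beside the 16q, 21p and 6p blocks an assembly gap took up all or nearly all of 1 flank. Gaps also took up most of 1 flank of 500 kb beside the 4p block (328824 bases) and the 2p block (325103 bases). The flanks of these blocks thus lay mainly on 1 side.

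The read count of a nucleosome had a limit in every list. The highest value was 1764 in all 4 libraries, which is 12 read-pair midpoints at each base of the footprint. Fuzziness, which is the SD (in bp) of midpoint distances from the dyad, was 42.43 bp for each nucleosome at that value, and a flat profile over the footprint has an SD of 42.4 bp. The lists held 35, 68, 41 and 70 nucleosomes at 1764, of which 16, 32, 23 and 32 were members. Those members lay in the 16q and 6p blocks. At such a nucleosome the count no longer tells how many read pairs the place would have given, and the fuzziness no longer tells how midpoints are placed. Removal of duplicate read pairs also limits counts, and its part in this limit was not tested.

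**Figure D2:**
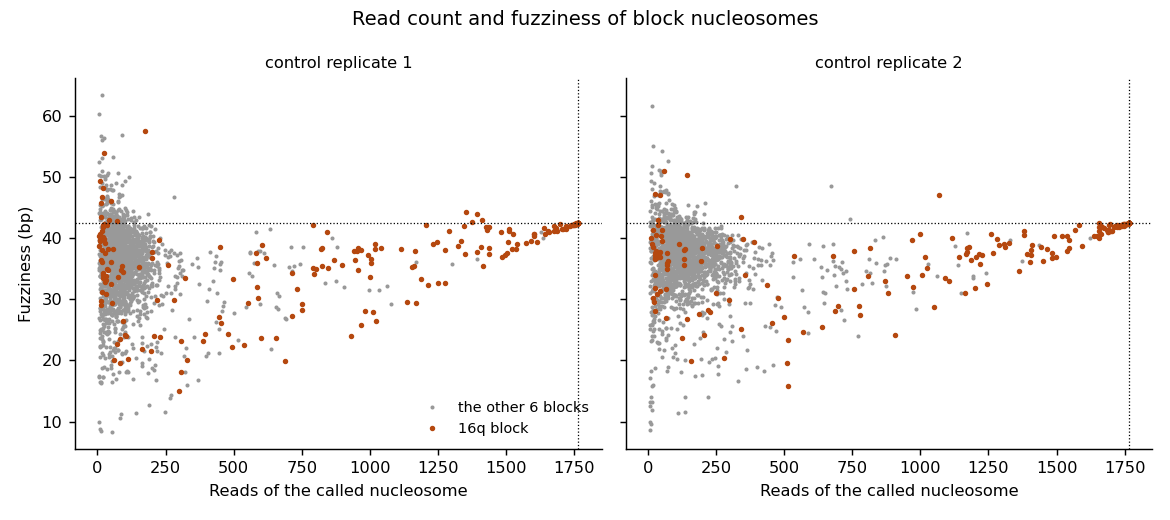
Reads and fuzziness of every member nucleosome in control replicates 1 and 2, with the 16q block coloured, and dotted lines at the highest read count (1764) and at its fuzziness (42.43 bp). The points of the 16q block narrow towards the crossing of both lines.

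The 16q block directly adjoined the assembly gap of chromosome 16 that ends at 46385801, so 5801 of its 60000 bases were unknown. It had no annotated gene. CATTC occurred 40.8 times per kb on either strand, against 3.73 per kb in its flanks. At least 2 copies of CATTC in a row were found in all 6 of its bins and in 1 bin of the 21p block, and in 3.76% of all 283810 bins with sequence. Of its 31-bp windows 28.5% occurred once in GRCh37, against 76.3% in its flanks, and 69.1% occurred more than once inside the block.

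Between 44 and 71 nucleosomes of the 16q block held at least 90% of the highest read count. Their share was 22.2%, 33.2%, 21.0% and 33.5%, so it followed the replicate number and not the group. Replicate 2 was also the deeper library, and the 2 cannot be told apart. In the 6p block the share was lower in replicate 2, at 23.7%, 8.33%, 22.2% and 6.06%. The nucleosomes near the highest count in the 16q block were spread over 48907 to 49421 bp of it. Mean fuzziness of the block exceeded that of its flanks by 1.39 ± 0.287 bp (SD over 4 libraries), and the median fuzziness did so by 2.46 bp. The nucleosomes near the highest count had a mean fuzziness of 41.9, 42.0, 41.9 and 42.1 bp, and the others of the block 34.9, 35.3, 34.8 and 35.9 bp. The flanks had 34.9, 36.6, 34.7 and 36.4 bp, so the other nucleosomes of the block were not fuzzier than the flanks by more than 0.0677 bp in any library.

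Spacing, the mean distance between neighbouring dyads 100 to 300 bp apart, was 219.0, 225.5, 220.0 and 219.3 bp in the 16q block. It exceeded the flanks by 13.6 ± 3.41 bp, the widest spacing of the 7 blocks relative to flanks. The most frequent distance was nonetheless 190 to 199 bp in both the block and its flanks, while 24.3% of distances in the block and 16.3% in the flanks were over 300 bp. With distances over 250 bp left out, the difference was 8.18 bp.

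The 4p block, which ends at an assembly gap that starts at 49338942, also had no annotated gene. Only 11.8% of its 31-bp windows occurred once in GRCh37, and 70.4% were repeated inside it. The commonest distance between copies of the same 15 bases was 6155 bp, and the commonest short ones were close to the length of 1 and of 2 footprints. Of its distinct 31-bp windows 39.3% also occurred on chromosome 21 and 36.7% on chromosome 1. Its nucleosomes were less fuzzy than those of its flanks, with a difference of -2.15 ± 0.184 bp that held in all 4 libraries (-2.40 to -1.97 bp), and with the median in place of the mean it was -1.13 bp. No other block had a lower fuzziness than its flanks in all 4 libraries. Spacing was 10.2 ± 1.87 bp above that of the flanks, and 4.58 bp above it with distances over 250 bp left out.

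A lone nucleosome stood out in the 4p block, the one whose sequence is given above. It held 1627, 1742, 1658 and 1743 reads, while the median nucleosome of the block held 77, 119.5, 82 and 118. It was the only member outside the 16q and 6p blocks with at least 90% of the highest read count, and its dyads lay within 18 bp of each other in the 4 libraries.

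The 16p block lies 1.30 Mb from the centromere gap of chromosome 16 and overlapped 7 annotated genes, none protein-coding. In order of position these began with the pseudogenes PCMTD1P2, DUX4L46 and DUX4L47, a miRNA entry named AC136932.2 and the long non-coding RNA LINC00273, followed by another miRNA entry and an rRNA pseudogene. Its commonest distances between copies of the same 15 bases were 172 and 171 bp, close to the unit of alpha satellite. In contrast to the 16q block, 58.6% of its 31-bp windows occurred once in GRCh37. The strongest shared nucleosome, the 16p sequence above, lies between LINC00273 and that rRNA pseudogene. It held 905, 1331, 924 and 1335 reads, against a block median of 64, 96, 68 and 97, and its GC content was 59.9%. Mean fuzziness differed from the flanks by 0.258 ± 0.243 bp and spacing by -2.44 ± 3.05 bp, so spacing lay within its spread.

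The 21p block overlapped 6 annotated genes and ended at the centromere gap of its chromosome. In order of position the first 5 were BAGE2 (a pseudogene of the B melanoma antigen family), the long non-coding RNA ENSG00000290523, the pseudogene ENSG00000278106, VN1R7P (a vomeronasal receptor pseudogene) and the long non-coding RNA ENSG00000277693. Of its 31-bp windows 40.0% occurred once, and 21.9% of the distinct ones also occurred on chromosome 7. With 651 to 659 nucleosomes it had the most members, at a median of 86, 137, 87 and 141 reads. It was fuzzier than its flanks by 0.818 ± 0.104 bp, and its spacing differed by 2.62 ± 1.53 bp, or 0.196 bp with flanks of 250 kb.

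The 2p block had the lowest level and the highest share of 31-bp windows found once (68.1%), against 21.3% in its flanks. Its 4 annotated genes were LSP1P5, listed as a long non-coding RNA, the pseudogenes ENSG00000278131 and ENSG00000283427, and the long non-coding RNA ENSG00000290846. The median nucleosome held 77, 117, 70 and 115 reads. Its mean fuzziness exceeded that of its flanks by 2.21 ± 0.202 bp (1.94 to 2.40 bp over the 4 libraries), more than in the other blocks, while by the median fuzziness the 16q block had the larger excess (2.46 against 2.02 bp). Its highest nucleosome held 123, 205, 120 and 179 reads, so the limit at 1764 was not reached there, although 1 nucleosome of its flanks stood at 1764 in each library. Spacing differed from the flanks by -3.86 ± 0.955 bp, and by -0.253 bp with distances over 250 bp left out.

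The 6p block ends 0.167 kb before the centromere gap of chromosome 6. Its reads were concentrated in the 3132 bp between dyads at 58776333 and 58779464, where the sequence repeats at distances of 3057 and 340 bp, the shorter close to a dimer of alpha satellite units. That stretch held 10 nucleosomes with 17130 reads in control replicate 1, 3 with 5152 reads in control replicate 2, 10 with 17169 reads in knockdown replicate 1 and 2 with 3377 reads in knockdown replicate 2. The lists of the replicate 1 libraries and those of the replicate 2 libraries thus resembled each other across groups and not within them. The longest distance between neighbouring dyads there was 713, 2049, 681 and 3081 bp in the same order. Every nucleosome of the stretch held at least 1392 reads. Fuzziness of the block differed from the flanks by -0.391 ± 1.77 bp and spacing, over 26 to 31 distances per library, by -12.1 ± 3.78 bp. Outside the stretch the block held 449, 1014, 434 and 930 reads, with more in the deeper libraries. In replicate 2 the stretch thus had fewer listed nucleosomes, and reads outside called nucleosomes were not in the lists used here.

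**Figure D3:**
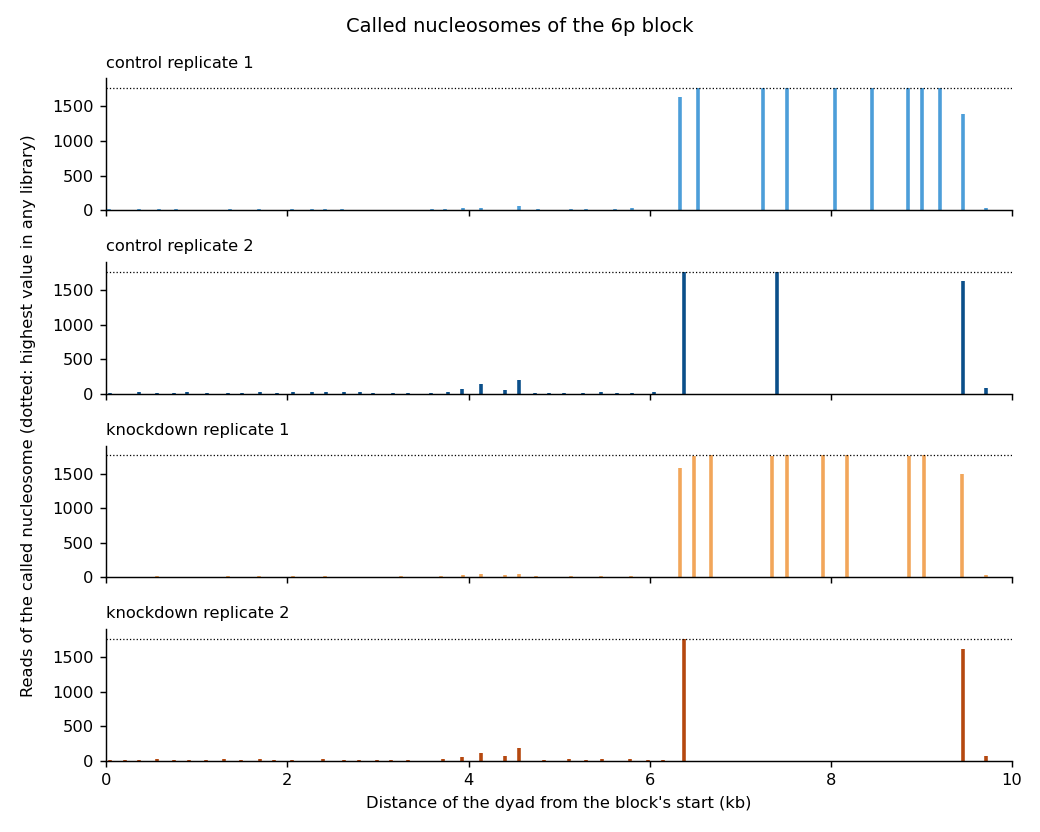
Read count of each called nucleosome of the 6p block against the distance of its dyad from the start of the block, in the 4 libraries, with a dotted line at 1764 reads. The array near the end of the block has 10 bars in each replicate 1 library, 3 in control replicate 2 and 2 in knockdown replicate 2.

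Read totals of the blocks were then compared between the deeper and the shallower library of each group. Over the whole list, replicate 2 had 1.64 times the reads of replicate 1 in the controls and 1.62 times upon knockdown. The 21p and 2p blocks had ratios of 1.61 and 1.62 in the controls and 1.60 and 1.62 upon knockdown, near those of the list. Ratios were lower in the 8q block (1.498 and 1.506), the 4p block (1.37 and 1.35), the 16p block (1.35 and 1.32) and the 16q block (1.11 and 1.17), and in the 6p block they were under 1 (0.351 and 0.245). The flanks of the 4p and 2p blocks had low ratios too (1.39 and 1.32, and 1.38 and 1.36). In the bins around MYCN, where 16.4% and 78.8% of nucleosomes in control replicates 1 and 2 were near the highest count, the ratio was 1.15 and 1.14. The share of members near the highest count was over 6% in every library in the 16q and 6p blocks and at most 0.326% in the others, and its part in these ratios was not tested. Scaled to list totals, replicate 1 had the higher share in all 7 blocks in both groups.

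**Figure D4:**
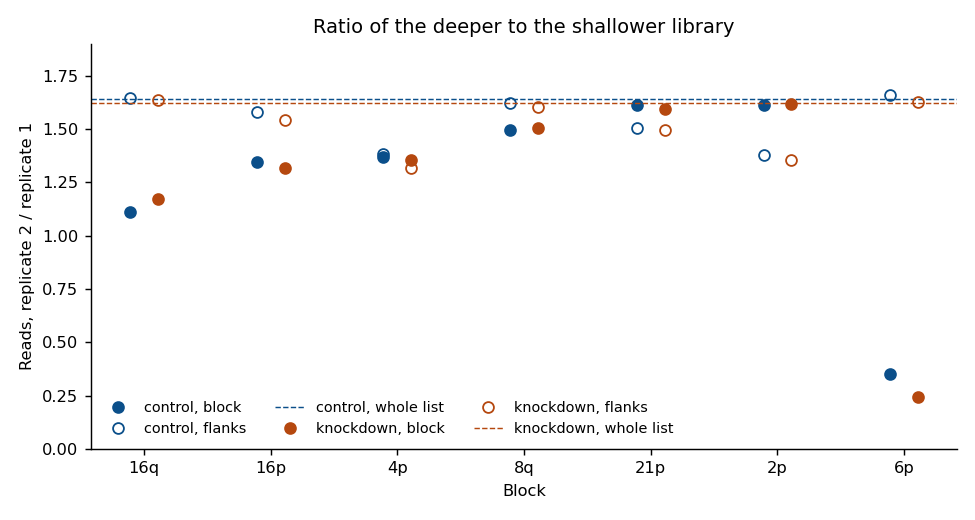
Reads in replicate 2 divided by reads in replicate 1 for each block (filled), its flanks (open) and the whole list (dashed line), for control and knockdown. The 16q block lies at 1.11 and 1.17 and the 6p block at 0.351 and 0.245, against 1.64 and 1.62 for the lists.

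The 8q block, which lies 39.9 Mb from the centromere gap of chromosome 8 and is thus not pericentromeric, was the most repetitive. It held the pseudogenes REXO1L11P, REXO1L10P, REXO1L9P, REXO1L5P and REXO1L2P, copies related to REXO1L1, a gene of the RNA exonuclease 1 family. Only 1.22% of its 31-bp windows occurred once in GRCh37, against 86.9% in its flanks, and 98.5% were repeated inside it. Of its distinct windows 39.2% also occurred in annotated transcripts of REXO1L1. The median nucleosome held 110, 167, 110.5 and 164 reads, with 12 in the flanks of the replicate 1 libraries and 17 in those of replicate 2. Mean fuzziness (0.0204 ± 0.496 bp) and spacing (-0.518 ± 2.59 bp) differed from the flanks by less than the spread over the 4 libraries.

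Nucleosome positions of the 8q block recurred at the distances at which its sequence recurs. When the block was shifted against itself, base identity was highest at 27468 bp (41.1%), 12193 bp (39.1%) and 3085 bp (37.2%), against a median of 25.2% over shifts of 1000 to 30000 bp. Within 10 bp of these 3 shifts, up to 22.7%, 23.3% and 17.1% of dyads met another dyad within 10 bp (mean of the 4 libraries). The median over all single shifts was 8.33% and the 99th percentile was 12.2%, so the highest share of a window is here set against single shifts. Not every such distance gave a high share, as the shifts of 15275 bp (34.6% identity) and 6170 bp (30.2% identity) reached 12.5% and 12.4% of dyads, close to the 99th percentile. Of all shifts in that range, the share of matched dyads was highest at 12192 bp. At 27468 bp the share was 21.6%, 22.3%, 23.9% and 22.96%, so it did not depend on 1 library. In the 4p block, where the sequence best matched itself at 6155 bp, 7.67% of dyads were matched at that shift alone, against a median of 8.03%. In the 16q block the shift of best identity, 11920 bp, taken alone, gave 10.7% against 8.34%. The authors kept only read pairs of a mapping quality over 10, which leaves out an unknown part of the pairs from repeats. Whether the recurrence lies in the chromatin or in which pairs were kept was not tested.

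**Figure D5:**
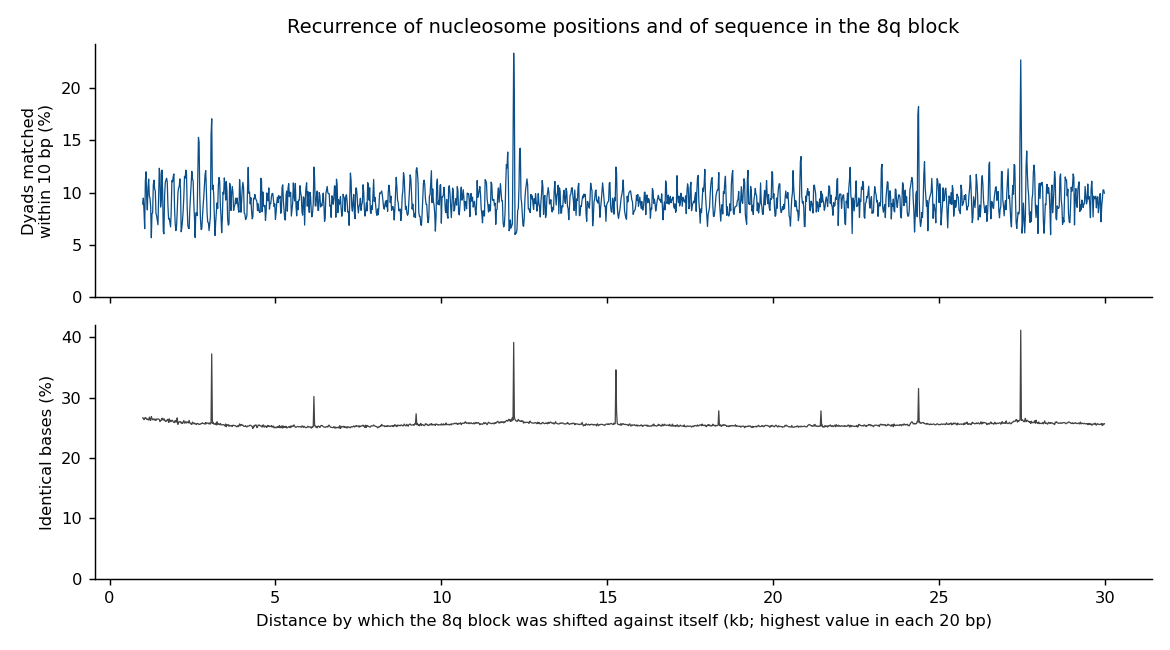
Share of dyads of the 8q block that met a dyad within 10 bp after a shift of the block against itself (top, mean of the 4 libraries) and share of identical bases at the same shift (bottom), each as the highest value in steps of 20 bp. Peaks in both panels stand at 3.085, 12.2, 24.4 and 27.5 kb, with 23.3% of dyads matched at the highest, while the identity peaks at 15275 and 6170 bp have little counterpart in the top panel.

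Positions were more alike between libraries inside the blocks than in their flanks. For each of the 6 pairs of libraries, the share of nucleosomes with a dyad within 10 bp in the other library was taken. In the 8q block it averaged 61.5% (57.0% to 64.9%), against 22.3% in its flanks. Corresponding averages were 61.2% and 27.0% for the 16q block, 60.8% and 32.2% for the 4p block, 52.9% and 30.6% for the 21p block, 50.3% and 34.5% for the 2p block, 48.6% and 27.5% for the 16p block and 33.6% and 20.5% for the 6p block. Reads per nucleosome differed between block and flanks as given above, and their part in this difference was not tested. On average over 2 pairs of each kind, same-numbered libraries of the 2 groups shared more positions than replicates of a group in all 7 blocks. Examples are 71.2% against 56.2% in the 16q block and 40.8% against 29.4% in the 6p block. Single pairs did not all follow, as in the 16p block the replicate 1 libraries shared 48.8% and the knockdown replicates 50.1%. Same-numbered libraries were also alike in depth, and its part was not tested. The same order of averages held in the flanks of all 7 blocks, so it was not particular to the blocks. It was 29.3% against 25.8% in the flanks of the 16q block and 20.9% against 20.3% in those of the 6p block. In the latter the replicate 2 libraries shared 19.7%, the lowest of the 6 pairs.

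Fuzziness was also set against that of all other nucleosomes with a like read count. Among nucleosomes of 100 to 199 reads, members had 35.5, 36.9, 35.4 and 37.1 bp, and the others 34.4, 36.1, 34.5 and 36.1 bp. Members of this class were thus fuzzier by 0.823 to 1.07 bp. They were also fuzzier in all 4 libraries at 20 to 49 reads (0.0231 to 0.418 bp) and at 50 to 99 reads (0.640 to 0.793 bp). In some classes the sign differed between libraries, with differences of -0.327, 1.24, -0.0362 and 1.22 bp at 200 to 499 reads, and it did so too at 6 to 19 and at 500 to 999 reads. Among nucleosomes of 1000 to 1586 reads members were less fuzzy, at 37.4, 37.3, 37.2 and 37.5 bp, against 39.7, 39.3, 39.6 and 39.2 bp for the others. In control replicate 1 the others of this class were 1710 nucleosomes and included many from the bins around MYCN. Those bins held 929 nucleosomes there, with a median of 1445 reads and a mean fuzziness of 40.1 bp. Nearest the limit, at 1587 to 1764 reads, members had 41.9 to 42.1 bp and the others 41.6 to 41.9 bp.

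Whether MYCN knockdown changed the blocks was tested next, a contrast that the choice of the blocks did not use. In the fit with the group only, 0 of the 51 block bins passed an adjusted p of 0.05 for reads in edgeR's quasi-likelihood test, and 0 had an unadjusted p under 0.05. With the replicate number as a block, 1 of them passed the adjusted p, the bin of the 6p block. In that edgeR fit 4 block bins had an unadjusted p under 0.05. Over the genome it called 67 of 283710 bins, with 25521 at an unadjusted p under 0.05. The edgeR fit with the group only called 1 of 283710 bins over the genome, which is 0.000352%. In it 9644 bins (3.4%) were at an unadjusted p under 0.05. DESeq2 called 0 bins and 0 block bins, while 3787 bins and 0 block bins had an unadjusted p under 0.05. In the edgeR fit with the group only, the median log2 change over the block bins was 0.01, against 0.00112 over all bins. Of the 51 changes 30 were above 0. A correction for the GC content of the bins gave a median of 0.035 in that fit, with 41 of the 51 above 0 and 0 called. Without that correction the median log2 change per block was 0.07 for 16p, 0.04 for 21p, 0.03 for 16q and 0.01 for 8q. It was -0.02 for 4p, -0.02 for 2p and -0.08 for 6p. In the fit with the group only, the standard error of the log2 change was 0.35 to 0.60 in the 16q bins and 0.35 in the 6p bin. With the replicate number as a block it was 0.04 in these bins. The fit with the group only thus could not tell changes below such errors from 0 in these blocks.

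The highest change among the 51 bins was in the 21p block at chr21:11060001-11070000, with 3237, 5655, 3550 and 5890 reads. Its log2 change was 0.10 ± 0.16 (SE; edgeR adjusted p 1). The lowest was in the 2p block at chr2:91810001-91820000, with 3393, 5272, 3155 and 4753 reads, a log2 change of -0.12 ± 0.15 (SE; edgeR adjusted p 1). Both changes were smaller than their standard errors in this fit with the group only. With the replicate number as a block, the 21p bin had 0.10 ± 0.05 (SE; edgeR unadjusted p 0.032, adjusted p 0.50). The 2p bin then had -0.12 ± 0.05 (SE; edgeR unadjusted p 0.012, adjusted p 0.39). Both changes exceeded their standard errors there, and neither passed the adjusted p of 0.05. Leaving out 1 library was enough to turn the sign of the median over the 51 bins. It was -0.07 without control replicate 2 and -0.06 without knockdown replicate 1. Without control replicate 1 or without knockdown replicate 2 it was 0.10. Each of these fits leaves the replicate numbers unequal between the groups, and replicate 1 had the higher share of reads in all 7 blocks. These values thus do not separate the knockdown from the replicate number.

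Summed per block, the 16q block took 1066 ± 292 RPM (reads scaled to a list total of 1000000) in the controls and 1087 ± 249 RPM upon knockdown (SD, n = 2). The 8q block took 351.8 ± 22.8 and 355.2 ± 18.8, the 4p block 311.1 ± 39.8 and 310.5 ± 39.7, the 16p block 156.4 ± 21.9 and 162.3 ± 23.7, and the 6p block 72.2 ± 66.2 and 68.7 ± 71.7, so in these 5 the groups overlapped. In the 21p block both knockdown libraries were above both controls (419.9 ± 5.07 against 410.6 ± 4.91), and in the 2p block both were below (104.2 ± 0.142 against 107.5 ± 1.24). These differences were 2.26% and -3.07% of the control mean. Of all 10-kb bins, 30.7% had groups that did not overlap in this measure, against which these 2 of 7 blocks and 9 of the 51 block bins are to be read. The exact permutation test, two-sided, gave p 0.333 for these 2 blocks, the smallest p the design allows, and 0.667 or 1 for the others.

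Fuzziness per bin gave no call either. In limma, 0 of 51 block bins and 0 of 283060 bins (0%) passed an adjusted p of 0.05. At an unadjusted p under 0.05 there were 0 block bins and 1450 of all bins (0.512%). The median change over the block bins was 0.0481 bp, against 0.00527 bp over all bins. Mean fuzziness per block changed by -0.162 bp (2p) to 0.654 bp (6p), the groups overlapped in all 7 blocks, and exact permutation p-values were 0.667 or 1. In the 16q block it was 37.0 ± 0.7995 bp in the controls and 37.1 ± 1.18 bp upon knockdown (SD, n = 2).

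Spacing per block was 202.8 ± 1.16 bp in the controls and 207.0 ± 1.39 bp upon knockdown in the 16p block, and 209.3 ± 1.87 and 207.0 ± 1.17 bp in the 8q block (SD, n = 2). In these 2 blocks the groups did not overlap, with changes in opposite directions, and the exact permutation p was 0.333, the smallest possible. For spacing per 10-kb bin, 32.8% of all bins and 17 of the 51 block bins had groups that did not overlap. In the other 5 blocks the groups overlapped, and the differences ran from -2.60 bp (16q) to 2.13 bp (6p). The median read count of a nucleosome overlapped between groups in all 7 blocks, with differences of -4.50 (2p) to 38.5 reads (16q).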

How the data were processed

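MNase-seq nucleosome lists of 4 BE(2)C libraries were analysed, grouped by the sample titles as control siRNA (2 libraries) and MYCN siRNA (2 libraries). The submitters' processing notes name CASAVA 1.9, Trim Galore 0.4.4, Bowtie2 2.2.4 and hg19. The authors retained properly paired reads at mapping quality over 10, removed PCR duplicates with Samtools, took pair midpoints as dyads and called nucleosomes with Genetrack, leaving out those under 6 reads. The study pooled replicates in further analysis, whereas the deposited lists are 1 per library. The deposited read count is a whole-number count of midpoints per nucleosome, although the study describes occupancy as normalized. Fuzziness, the deposited score, was computed by the authors as the SD in bp of midpoints around the dyad. Since reads with a low mapping quality were dropped, the counts leave out an unknown part of the read pairs from repeats. Totals are reads in called nucleosomes, not library depth.

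Members were nucleosomes with a dyad (start + 73 bp) in the 7 blocks. The members, named genes and tests were chosen with earlier results of these data known. Named were every protein-coding gene overlapping a block (there were none), up to 5 other genes per block in order of position, the strongest nucleosome shared by all libraries, and the bins with the highest and lowest change. Genes came from GENCODE lifted to GRCh37, and copies were counted as 31-bp windows on both strands of GRCh37. Reads in 10-kb bins with a mean of at least 10 were tested with edgeR 4.0.16 (R 4.3.3; quasi-likelihood, TMM, Benjamini-Hochberg), with DESeq2 1.42.0 as an alternative. Mean fuzziness of bins with at least 10 nucleosomes in every library was tested with limma 3.58.1. Values per block were compared by exact permutation tests with a smallest p of 0.333. Bins on chromosome Y were not used here. Both fits were tested on simulated data.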

Additional observations from a re-analysis of the deposited data

How the results depend on the processing

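The replicate numbers tie the libraries of the groups together only by number, with 2 pairs, and their deviations from the group means had, at the same number, a correlation of 0.464 over all bins and 0.967 over the 51 block bins. With the replicate block, edgeR called 67 bins, of which 1 was a block bin, and with a GC correction and the replicate block 2 bins, of which 1 was a block bin. That bin was the 6p block in the fit with the block alone, at a log2 change of -0.23 (edgeR adjusted p 0.00800), where knockdown replicate 2 had 2 and control replicate 2 had 3 nucleosomes in the array. List totals without TMM and DESeq2 each called 0 bins. Without each library in turn, edgeR called 0 to 2 bins and 0 block bins. The median log2 change over block bins then ran from -0.07 to 0.10, and the median fuzziness change from -0.619 to 0.660 bp. Both medians thus changed sign with the library left out. They stayed within the spread between replicates, but that spread is made of the same differences between libraries and could hardly be exceeded. In limma, 0 bins were called under every alternative, the replicate block included (15593 at an unadjusted p under 0.05). For the values per block, the mean of same-numbered differences equals the difference of group means, so the replicate block left them as they were.

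The median over the 7 blocks of the read count relative to flanks was 4.32 times, and became 3.84 times with flanks of 250 kb and 5.32 times with means in place of medians, where the 6p block rose from 1.30 to 25.3 times and the 2p block stood at 1.65. The median spacing difference of -0.518 bp became 3.69 bp without distances over 250 bp. Positions shared at the same base, in place of within 10 bp, had a median of 4.28% against 52.9%. The 90% limit that leaves out nucleosomes near the highest count was chosen after seeing the data, and changed no count of calls. Of 107 alternative values of the summary results, 94 stayed within the spread between libraries or within 1.5 times the count. Of 308 for single blocks 281 did, a count that is no measure of robustness. There, leaving out 1 library could not move a group difference, or a mean over the 4 libraries, past that spread. The 27 values that moved came from other settings. They were 10 for the read count over flanks, 5 each for fuzziness and spacing, and 7 for shared positions. The median nucleosome of the flanks held 11 to 32 reads.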
